A study of Mus musculus with 32 samples.

Results

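Ligand-gated transmitter receptor subunits were followed in whole olfactory bulb RNA of control mice and of mice mutant for the transcription factor gene Tshz1. The set holds every gene with a probe whose symbol names a subunit of an AMPA, kainate, delta or NMDA glutamate receptor, a GABA-A or GABA rho receptor, a glycine receptor, a nicotinic acetylcholine receptor or a 5-HT3 serotonin receptor. It came to 50 genes, read by 74 probes, among 16593 named genes and 25697 probes.

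The study compared bulbs of control and Tshz1 mutant mice on 32 Illumina bead arrays, 8 in each of 4 groups, on a mixed C57/BL6, 129/Ola and CD1 background. At E18.5, late in embryonic life, the controls carried Tshz1 GFP/+ and the mutants GFP/delta, and both were wild type at nestin. At P30, in young adults, the controls were Tshz1 flox/+ and the mutants flox/GFP, and both carried Nestin +/Cre, a recombinase driven in neural progenitors and the cells that descend from them. The GFP allele was therefore present in the embryonic controls as well, and the Cre transgene in the controls of the older age. By these labels no control group was wild type at Tshz1. The submitter later exchanged the titles of the P30 control and mutant samples, and the corrected labels are used here. The targeted gene was not analysed here, so the labels were not checked on it. The labels do not say whether the samples of a group are separate animals, so p-values measure the spread between these samples.

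Ligand-gated receptors are channels built of several subunits that open when transmitter binds. Glutamate and acetylcholine receptors and the 5-HT3 receptor pass cations and excite, whereas GABA-A and glycine receptors pass chloride and usually inhibit mature neurons. In the bulb, granule and periglomerular interneurons release GABA onto mitral and tufted cells and receive glutamate from them, and the subunits a neuron makes set how strong and how lasting each of these currents is.

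Levels are log2 normalized intensities, and a probe counted as detected on an array where its detection p-value was under 0.05. The arrays had median raw intensities of 100.25 to 181.2 and detected 40.1% to 55.2% of probes. The number of arrays limits the precision. Each age lay on its own 2 chips, each with 4 control and 4 mutant arrays. P30 mutant replicates 1 and 2, and E18.5 control replicates 6 and 8, were each left out as a pair, with values given beside the results they move. Leaving out the P30 pair was not planned in advance, nor was leaving out the E18.5 pair in the comparisons between the ages. In whole-bulb RNA, fewer cells of a type and less RNA per cell cannot be told apart.

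The glutamate receptor families that carry fast and modulatory currents were the best measured of the set. All 4 AMPA subunits (Gria1 to Gria4) and all 4 kainate subunits (Grik1, Grik2, Grik4 and Grik5) were detected on at least 1 array. Gria1, Gria2, Gria3, Grik1 and Grik5 were detected on all 8 arrays of every group. Gria4 was detected on 0 of 8 arrays in either E18.5 group, but on 7 P30 control and 6 P30 mutant arrays. Grik2 was found on 2 control and 3 mutant arrays at E18.5 and on none at P30. The 5 NMDA receptor genes, Grin2a, Grin2b, Grin2c, Grin2d and Grin3b, were detected on no array of any group.

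Of the inhibitory subunits, 5 of 14 genes of the GABA receptors were detected. They were Gabra3, the pair Gabrb1 and Gabrb2, Gabrg1, and Gabrd, whose delta subunit forms receptors outside the synapse that give a lasting, tonic current. Gabra2, Gabra4, Gabra5, Gabra6, Gabrg3, Gabre and the 3 rho genes Gabrr1, Gabrr2 and Gabrr3 were detected on no array. Of the glycine receptor genes, Glra2, the alpha subunit that prevails in the immature nervous system, and Glrb, the beta subunit that ties the receptor to the scaffold protein gephyrin, were detected. Glra1, Glra3 and Glra4 were not.

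Among the receptors for acetylcholine and serotonin, 11 of 16 nicotinic genes were detected on at least 1 array. Chrna3 and Chrnb2 were detected on all 8 arrays of every group. Chrna4, whose product joins that of Chrnb2 in the common high-affinity nicotinic receptor of the brain, was missed by all its probes on 1 P30 control array only. The muscle-type genes Chrna1, Chrnd and Chrng, and the neuronal Chrna6 and Chrnb3, were detected nowhere. Chrnb1, also muscle-type, was detected on 7 control and 7 mutant arrays at E18.5 and on 2 control and 1 mutant arrays at P30. Chrna7 was detected on 1 E18.5 mutant and 2 P30 mutant arrays, and Chrne, another muscle-type gene, on 2 E18.5 mutant arrays. Htr3a, which encodes the subunit every 5-HT3 receptor needs, was detected on all 16 P30 arrays, while Htr3b was detected on none. A detection call describes a probe and not the tissue: the probes of Snap25, Nefl and Gad2, which bulb neurons are known to express, were also detected on no array.

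**Figure D1:**
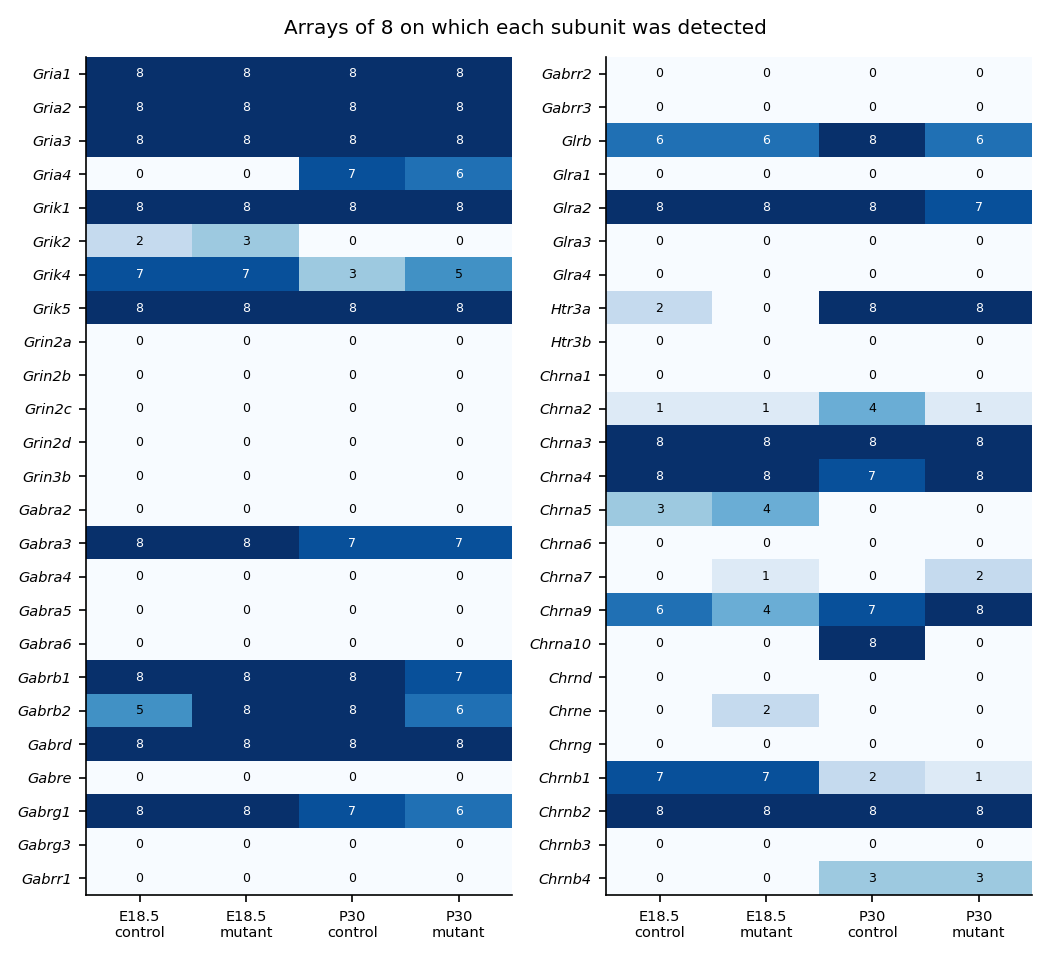
Number of arrays, of 8 in each group, on which at least 1 probe of each of the 50 receptor subunit genes had a detection p-value under 0.05. The genes run by family from the glutamate receptors at the upper left to the nicotinic receptors at the lower right, and 23 of them read 0 in all 4 groups, while Chrna10 reads 8 in the P30 controls and 0 elsewhere.

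A gene was tested where a probe of it was detected on at least 4 arrays of a fit. By this filter 20 of the 50 genes entered the E18.5 comparison and 22 the P30 comparison, 17 of them at both ages, and 25 at neither. Over both ages together 25 genes were tested, and 8 of these passed the filter only through 1 group or 1 age. Tests are limma's moderated test, two-sided, with Benjamini-Hochberg adjustment over all genes tested, and a gene was called at an adjusted p under 0.05.

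In the E18.5 bulb, Gabrd was the subunit gene that differed between mutant and control. It was called lower in the mutant, 1 gene of 20 against a background of 0.581% called among all 10852 genes and unnamed probes tested (0.507% lower and 0.0737% higher). Its level in the controls ran from 6.81 over a median of 7.19 to 7.54, and in the mutants from 6.27 over 6.48 to 6.75. Every mutant array lay below every control array, as was the case for 0.341% of all genes. The log2 change was -0.68 (SE 0.12, n = 8 and 8, unpaired, limma adjusted p = 0.00657), a 1.6-fold lower level. It measured -0.49 on the first chip and -0.86 on the second, and with 4 arrays a group neither chip gave the call by itself (limma adjusted p = 0.189 and 0.326). A second Gabrd probe gave -0.59 (limma adjusted p = 0.237 with every probe tested). With the replicate number as a block, Gabrd stayed called, at a higher limma adjusted p than in the unpaired fit.

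Some genes of granule cells, the most numerous bulb interneurons, and of GABA release were called lower at E18.5, as Gabrd was. At that age 0.581% of all genes tested were called. None was called of 10 mitral and tufted cell, 6 neuroblast, 5 radial glia, 6 astrocyte and 5 oligodendrocyte markers tested. The same held for 7 microglia, 6 endothelium and pericyte, 5 striatal, 4 cortical and 1 olfactory sensory neuron markers. Gng4 and Nrgn were called lower, 2 of the 5 granule cell markers tested, and the summed level of the list was 12399.7 to 19806 in the controls and 9398 to 18087 in the mutants, in linear normalized intensity. Camk4 and Synpr, which are also on that list, were on no array. Gad1 and Slc32a1, which make GABA and load it into vesicles, were lower too, 2 of 6 tested GABAergic markers, with sums of 30258 to 36461 and 25589 to 33230.5. Gad1 lost its call without any 1 of E18.5 control replicates 1 and 2 and mutant replicates 3, 7 and 8 (limma adjusted p = 0.0508 to 0.0672). Th (1 of 7 periglomerular and dopaminergic markers), Rbfox3 (1 of 7 pan-neuronal markers) and Actn2 (1 of 3 muscle markers) were lower as well. The part of these cells in the Gabrd difference was not tested.

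The other 19 subunit genes tested at E18.5 did not pass, and of all 20 genes, Gabrd included, 10 had changes above 0 and 10 below. The median change over the 20 was 0.01, and over all genes -0.01. Chrnb2 came nearest, at -0.28 (SE 0.13, limma adjusted p = 0.555), with controls of 9.04 to 9.71 and mutants of 8.65 to 9.46. Gria2, whose edited product keeps calcium out of AMPA receptors, measured 11.26 in the median control and 11.74 in the median mutant, a change of 0.41 (SE 0.22, limma adjusted p = 0.603). The groups overlapped for both genes.

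The remaining families at E18.5 were close to their controls in size of change. Among the glutamate subunits Gria1 changed by -0.12, Gria3 by 0.03, Grik1 by 0.16 and Grik5 by -0.21. Among the inhibitory ones Gabra3 changed by 0.14, Gabrb1 by 0.28, Gabrb2 by 0.06, Gabrg1 by 0.08, Glra2 by 0.17 and Glrb by 0.14. Chrna9, an alpha subunit best known from the hair cells of the inner ear, changed by -0.29, Chrna4 by -0.11 and Chrnb1 by -0.11. The limma confidence intervals of all of these but Gabrd and Chrnb2 included 0, and the widest, that of Chrnb1, ran from -0.69 to 0.48.

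Several of these small changes rested on E18.5 control replicates 6 and 8. Without both, Grik5 changed by -0.01, Gria3 by -0.14, Gabra3 by 0.04, Gabrb1 by 0.14, Gabrb2 by -0.03, Gabrg1 by -0.01, Glra2 by 0.10 and Glrb by 0.00. None of these was called either way, and Gabrd stayed called at -0.59 (limma adjusted p = 0.0281).

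In the P30 bulb 3 of 22 subunit genes were called, against 4.33% of all 9928 tested. Chrna10 was lower in the mutant, and Htr3a and Chrna4 were higher. The median change over the 22 was 0.03 and over all genes 0.01, and 8 of the 22 had an unadjusted p under 0.05, as did 1598 of the 9928 genes. Of all genes, 2.00% were called higher and 2.33% lower at this age.

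**Figure D2:**
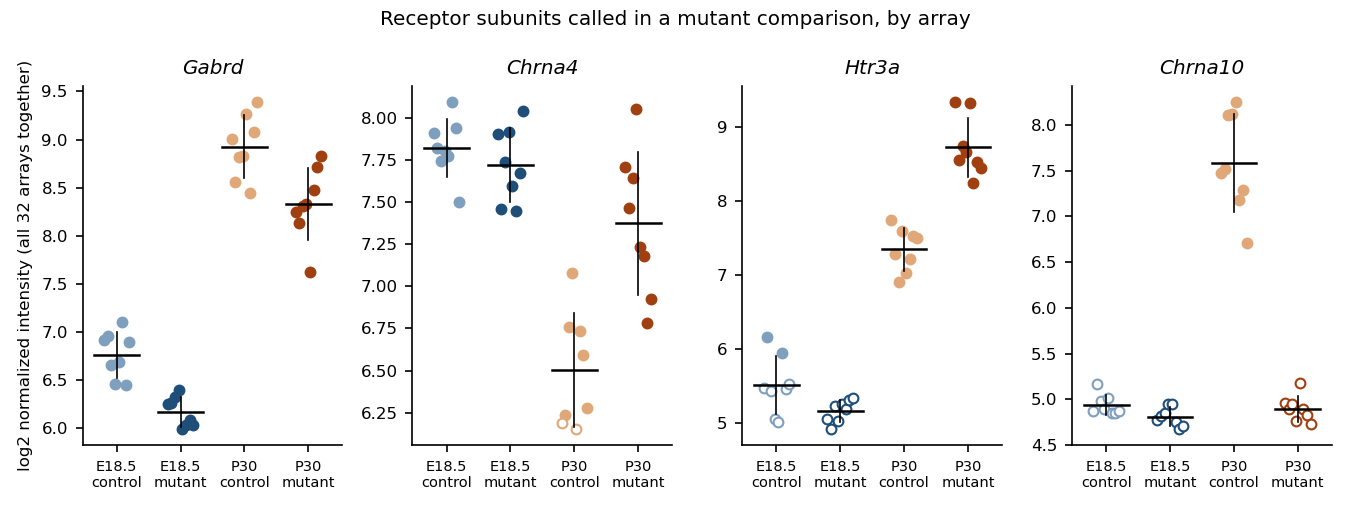
Log2 normalized intensity, all 32 arrays normalized together, of the 4 subunit genes called in a mutant comparison. Each circle is 1 array, filled where the probe was detected and open where it was not, the horizontal bar is the mean and the vertical bar 1 SD of 8 arrays. Gabrd is lower in the mutants at E18.5, Chrna10 is detected in the P30 controls alone, and Htr3a is higher in every P30 mutant than in every P30 control.

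Chrna10 encodes a nicotinic alpha subunit that joins the product of Chrna9 in the receptors of cochlear hair cells. In the P30 controls its level was 6.18, 6.81 and 7.47 (lowest, median and highest array) and it was detected on 8 of 8. In the mutants it was 4.69, 4.85 and 5.08 and it was detected on 0 of 8, so the groups did not overlap. Because the mutant values lie at background, the difference is a bound. The level was at least 2.21-fold lower, set against the higher of each array's lowest detected signal and the probe's own. The bound itself was not tested, and the test was made on the measured change of -2.05 (limma adjusted p = 1.39e-07). Chrna10 entered this test through its control arrays alone, the group where it is high, so the filter admitted it because of the difference that its p, its call and its lack of overlap then describe. With no detection filter, where all 50 subunit genes were tested, it was called as well (limma adjusted p = 2.82e-06). The measured change was -2.24 on the first P30 chip and -1.86 on the second.

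The Chrna10 signal rests on 1 probe, and the gene lies inside the annotated span of Art1, between Art5 and Nup98, in the RefSeq order of genes. Art1 was detected on no array, and Art5 on 1 E18.5 control array. Nup98, a nuclear pore gene, was detected on 8 control and 7 mutant arrays at P30 and changed by -0.12 (SE 0.18, limma adjusted p = 0.833). Chrna9, the partner subunit, was detected on 7 control and 8 mutant arrays at P30. It measured 5.83 to 6.65 in controls and 5.68 to 7.25 in mutants, a change of 0.00 with a limma confidence interval of -0.42 to 0.41.

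Htr3a was the subunit gene with the clearest rise. Its level was 6.32, 6.72 and 7.02 in the P30 controls and 7.47, 7.81 and 8.53 in the mutants. All 8 mutant arrays lay above all 8 control arrays. Non-overlap held for 2 of the 22 subunit genes, Htr3a and Chrna10, and for 1.12% of all genes tested. The change was 1.25 (SE 0.17, limma adjusted p = 8.04e-05), or 2.37-fold, with 1.31 and 1.19 on the 2 chips. Without mutant replicates 1 and 2 it was 1.18.

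Chrna4 was 5.76, 5.97 and 6.46 in the P30 controls and 6.23, 6.69 and 7.30 in the mutants. The probe used was detected on 6 of 8 controls and 8 of 8 mutants, so the change rests partly on control values not above background. Of the 8 mutant arrays, 6 lay above every control and the other 2 overlapped them. The change was 0.69 (SE 0.17, limma adjusted p = 0.0169), a 1.62-fold higher level. On the first chip alone it was 0.93 (limma adjusted p = 0.0839) and on the second 0.46 (0.288), so neither chip carried the call by itself. A second probe, detected on 5 of 8 controls, gave 0.63 (limma adjusted p = 0.0609 with every probe tested).

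The region before the start of a gene holds many of the sites where transcription factors bind. RefSeq promoter windows were at hand for 38 of the 50 genes. Of the subunit genes called in a mutant comparison, Chrna4 and Chrna10 had a window, shown here, and Gabrd and Htr3a had none. Each sequence is the 250 bases before the start that the RefSeq table uses, on the gene's strand in GRCm38.p6, 5′ to 3′, with capitals for the GC box GGGCGG on either strand. Both windows lie within the annotated span of their gene, which holds transcripts that start further upstream. Chrna4 lies on the minus strand at chr2:181039178-181039427 and Chrna10 on the minus strand at chr7:102116714-102116963.
Chrna4: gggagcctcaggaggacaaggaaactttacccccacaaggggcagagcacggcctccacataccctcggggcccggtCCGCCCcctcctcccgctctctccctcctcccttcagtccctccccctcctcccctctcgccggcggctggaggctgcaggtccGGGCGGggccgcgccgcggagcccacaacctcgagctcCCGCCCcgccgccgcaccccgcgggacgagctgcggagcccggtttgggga
Chrna10: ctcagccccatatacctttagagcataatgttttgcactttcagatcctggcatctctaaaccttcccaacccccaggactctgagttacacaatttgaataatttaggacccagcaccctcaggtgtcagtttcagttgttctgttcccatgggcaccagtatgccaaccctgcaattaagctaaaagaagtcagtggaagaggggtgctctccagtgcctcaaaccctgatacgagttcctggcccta
The Chrna4 window was 74.4% G and C and held 3 GC boxes, and the Chrna10 window was 48% G and C and held 0. A GC box was found in 32.7% of the 32841 windows of this length in the RefSeq table. Neither window held the homeodomain core TAATTA (in 4.84% of windows), the TATA box TATAAA (12.4%) or the E box CACGTG (6.02%), each searched on both strands.

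Gabrd at P30 pointed the same way as at E18.5 but did not pass the threshold. Its level was 7.65, 8.11 and 8.58 in the controls and 6.92, 7.53 and 8.03 in the mutants, with 5 of 8 mutants below every control. The change was -0.56 (SE 0.18, limma adjusted p = 0.0711), with -0.52 and -0.61 on the 2 chips and -0.12 for the second probe. It passed with chip as a block (limma adjusted p = 0.0496) and without mutant replicate 8 (0.0469). The mutant effect on Gabrd differed between the ages by 0.00 with the probe used (limma confidence interval -0.43 to 0.43). With the second probe it differed by 0.35 (SE 0.29).

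**Figure D3:**
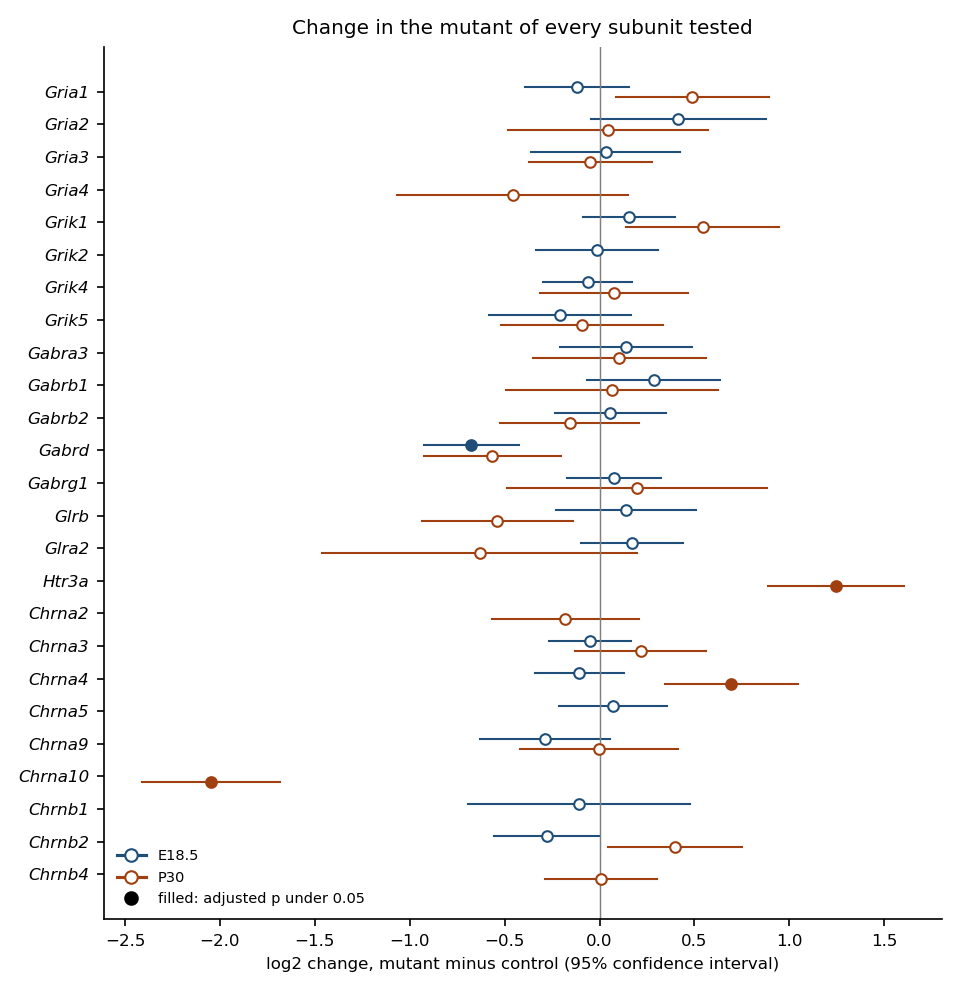
Log2 change, mutant minus control, of each subunit gene tested at E18.5 (blue) and P30 (brown), with its 95% limma confidence interval. Filled points have an adjusted p under 0.05: Gabrd at -0.68 at E18.5, and Chrna10 at a measured -2.05, Chrna4 at 0.69 and Htr3a at 1.25 at P30. The other points are open, and most of their intervals include 0.

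Of the glutamate receptor subunits none was called at P30, against the 4.33% of all genes called there, and the 2 nearest the threshold were higher in the mutants. Grik1, which forms kainate receptors, measured 6.70, 7.48 and 8.12 in controls and 7.41, 8.08 and 8.33 in mutants, a change of 0.54 (SE 0.20, limma adjusted p = 0.132). Gria1 measured 8.12, 8.66 and 9.24 against 8.40, 9.06 and 9.74, a change of 0.49 (SE 0.19, limma adjusted p = 0.186). Its 3 probes gave 0.49, 0.36 and 0.39. The groups overlapped for both genes. Gria2 changed by 0.05 with the probe used, while its second probe, detected on all arrays, gave -0.63 (SE 0.34, limma adjusted p = 0.387 with every probe tested). Gria3 changed by -0.05, Grik4 by 0.07 and Grik5 by -0.09.

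The inhibitory subunits other than Gabrd were not called at P30 either. Glrb measured 6.23, 6.67 and 6.89 in controls and 5.36, 6.18 and 6.76 in mutants, a change of -0.54 (SE 0.19, limma adjusted p = 0.129). Glra2 measured 7.47, 8.85 and 9.10 against 5.86, 8.12 and 9.37, a change of -0.63 (SE 0.40, limma adjusted p = 0.487). Gabra3 changed by 0.10, Gabrb1 by 0.07, Gabrb2 by -0.16 and Gabrg1 by 0.20. Among the nicotinic genes, Chrnb2 changed by 0.40 (SE 0.17, limma adjusted p = 0.23), Chrna3 by 0.22, Chrna2 by -0.18 and Chrnb4 by 0.01.

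Much of the spread of 5 of these genes lay in P30 mutant replicates 1 and 2. On these arrays Glra2 was 5.86 and 6.79, Gabrg1 4.79 and 5.33, Gria4 4.79 and 4.86, Gabrb1 5.84 and 6.67, and Glrb 5.36 and 5.45, the lowest mutant values of each gene. The 2 arrays also detected fewer probes than the other mutants of that age, 40.2% and 40.1% against 45.1% to 49.3%. Without both, the change of Glra2 went from -0.63 to -0.08, that of Gria4 from -0.46 to -0.03, that of Glrb from -0.54 to -0.30 that of Gabrg1 from 0.20 to 0.67 and that of Gabrb1 from 0.07 to 0.40, and none of the 5 was called. Among the other uncalled genes Gria2 went from 0.05 to 0.29, Gabra3 from 0.10 to 0.19, Gabrb2 from -0.16 to 0.04, Grik4 from 0.07 to -0.10, Chrna9 from 0.00 to -0.25, Chrna3 from 0.22 to 0.12, Chrna2 from -0.18 to -0.42 and Chrnb4 from 0.01 to -0.05, again with no call. The part of RNA quality in these values was not tested.

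**Figure D4:**
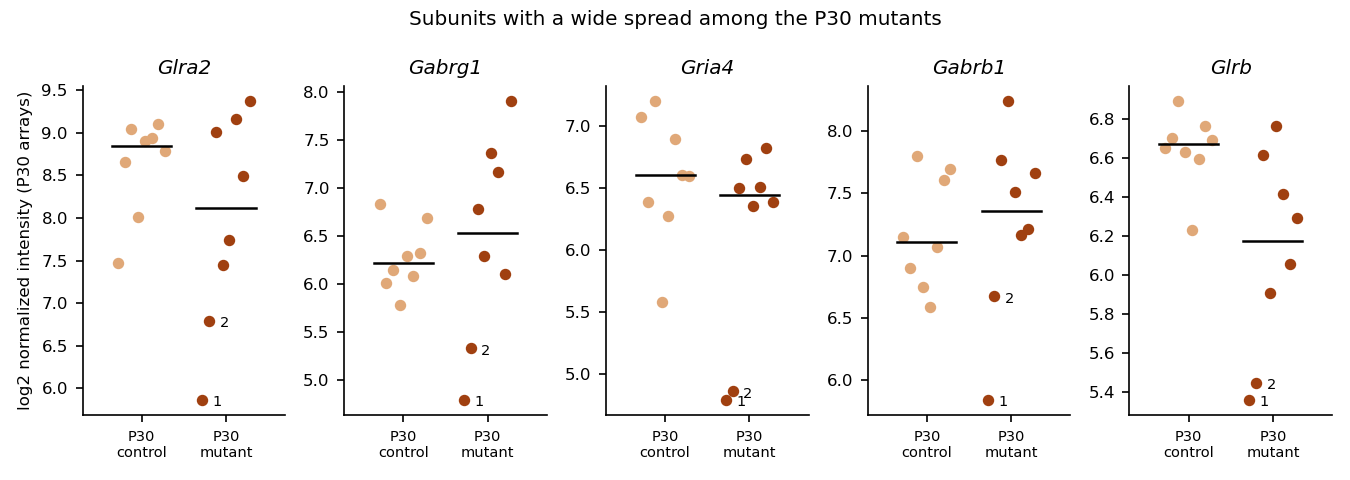
Log2 normalized intensity on the 16 P30 arrays of 5 subunit genes, with 1 point per array and the median as a bar. Mutant replicates 1 and 2 are numbered, and they are the 2 lowest mutants for each gene, for example 4.79 and 4.86 for Gria4 against 6.36 to 6.83 on the other mutants.

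Markers of several cell types were also called at P30, where 4.33% of all genes tested were called. None was called of 6 GABAergic, 4 neuroblast, 7 oligodendrocyte, 5 endothelium and pericyte and 2 olfactory sensory neuron markers tested. Of the granule cell list 4 of 5 genes tested were lower, Gng4, Nrgn, Meis2 and Pbx3, with sums of 8703 to 14123 in controls and 5734 to 8756 in mutants. Of the periglomerular and dopaminergic list 4 of 7 were higher, Slc6a3, Trh, Ddc and Th, and Kcnip1 was lower, with sums of 10729.6 to 16944 and 13842 to 28212. Calb1, another gene of that list, was on no array. Of the microglia list C1qa, C1qb, C1qc and Trem2 were higher, 4 of 7, with sums of 1272 to 2623 and 2316 to 6919.8. Of the mitral and tufted cell list Slc17a7 and Tbr1 were higher and Doc2g lower, 3 of 9, with sums of 15485 to 23401 and 20092 to 32033. Gfap, of reactive astrocytes, was also higher (1 of 8 astrocyte genes; sums of 36122 to 49987 and 42994 to 58057). Vim, Ppp1r1b, Rbfox3 and Actn2, 1 gene each of the radial glia, striatal, pan-neuronal and muscle lists, were called too, the former 2 higher and the latter 2 lower. The part of these cells in the Chrna10, Htr3a and Chrna4 differences was not tested.

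Some of these marker calls rested on single arrays. Meis2 lost its call without any 1 of P30 control replicates 2, 3 and 7 and mutant replicates 6 and 8, C1qa without control replicate 1 or 5, and C1qb without any 1 of control replicates 1, 2, 3 and 6 and mutant replicate 5. Th kept its call only without control replicate 4 or 8 or mutant replicate 5, 6 or 8, Trem2 only without control replicate 4, 5 or 8 or mutant replicate 3 or 4, and Doc2g only without any 1 of control replicates 1 to 3 and mutant replicates 3, 6 and 7. Their adjusted p then ran from 0.0501 for C1qa to 0.106 for Th.

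Whether the mutant effect differed between the ages was tested over all 32 arrays normalized together. The test was passed by 3 of 25 subunit genes, 2 with a higher effect at P30 and 1 with a lower one, against 1.85% of all 11312 tested (1.03% and 0.813%). The effect on Chrna10 was lower at P30 than at E18.5 by 2.55 as measured (SE 0.21, limma adjusted p = 2.15e-10), and the effect on Htr3a was higher by 1.73 (SE 0.23, limma adjusted p = 7.75e-06). At E18.5, however, Chrna10 was detected on no array and Htr3a on 2 control and 0 mutant arrays, so these measured differences set a P30 effect against levels near background, and Chrna10 passed the filter through 1 group of the 4. The effect on Chrna4 was higher at P30 by 0.97 (SE 0.22, limma adjusted p = 0.0116), but by 0.74 with median scaling, where the call was lost (limma adjusted p = 0.125). Chrna4 was detected on all 16 E18.5 arrays, at 7.96 to 8.59 in controls and 7.91 to 8.53 in mutants.

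Several genes had effects of opposite sign at the 2 ages without passing that test. Chrnb2 changed by -0.28 at E18.5 and by 0.40 at P30, a difference of 0.67 (SE 0.21, limma adjusted p = 0.0951). It passed without P30 control replicate 4 (limma adjusted p = 0.0453) and without P30 mutant replicate 8 (0.0433), with chip as a block (0.0404) and with the replicate number as a block (0.0313). Its 3 probes gave differences of 0.67, 0.89 and 0.00. Glrb changed by 0.14 and -0.54, a difference of -0.82 (SE 0.29, limma adjusted p = 0.156), or -0.50 without P30 mutant replicates 1 and 2. The ages differ also in chip, in the Tshz1 alleles and in Nestin-Cre, and these cannot be told apart.

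The control bulbs of the 2 ages differed in the levels of several subunit genes, with age, chip, Tshz1 alleles and Nestin-Cre changing together. Here a call also needed a 2-fold difference, and 9 of 25 subunit genes were called, against 23.9% of all genes. Of these 7 were higher at P30 and 2 lower, against 11.3% and 12.6% of all genes. With no background correction the changes were smaller and 3 calls remained, Chrna10, Gabrd and Grik1, among 1503 genes in place of 2698. The median change was 0.35 over the 25 genes and -0.01 over all genes. With no fold threshold 17 of 25 had an adjusted p under 0.05, against 61.8% of all genes. The P30 controls are the same arrays as in the P30 mutant comparison.

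Gabrd was higher in the P30 controls, going from 6.45, 6.79 and 7.10 in the E18.5 controls to 8.44, 8.92 and 9.39 at P30. This was a change of 2.16 (SE 0.15, limma adjusted p = 7.08e-15), or 4.47-fold, and the ages did not overlap. Overlap was absent for 10 of the 25 subunit genes and for 25.0% of all genes. Chrna10 was at least 3.79-fold higher at P30, where it was detected on 8 of 8 arrays against 0 of 8. Htr3a went from a median of 5.47, detected on 2 of 8, to 7.39, detected on 8 of 8, a measured change of 1.84 (SE 0.16, limma adjusted p = 5.97e-12) that rests on 6 of 8 E18.5 controls not above background. Of the genes called higher at P30, Chrna10, Htr3a and Gria4 passed the filter through P30 arrays alone, the age where they are high.

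The glutamate and glycine subunits called higher in the P30 controls were Gria3, Gria4 and Glrb. Gria3 went from a median of 6.87 to 8.09, a change of 1.36 (SE 0.17, limma adjusted p = 1.18e-08). Gria4 was at least 2.91-fold higher at P30, since no E18.5 array detected it. Glrb went from 5.76 to 7.34, a change of 1.60 (SE 0.20, limma adjusted p = 2.64e-08). The 3 Gria1 probes disagreed in size, at 0.43 for the probe used and 0.98 and 1.01 for the others (limma adjusted p = 3.49e-07 and 6.29e-06 with every probe tested), the last of them past the fold threshold. Chrna9 was just past the fold threshold at 1.01 (SE 0.20, limma adjusted p = 6.05e-05), and its call ended without any 1 of E18.5 control replicates 2, 5, 6 and 7 or P30 control replicates 2, 3, 4 and 5, where the change was 0.93 to 1.00.

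Grik1 and Chrna4 went the other way. Grik1 measured 9.56, 9.70 and 10.10 at E18.5 and 7.37, 8.26 and 8.93 at P30, a change of -1.58 (SE 0.17, limma adjusted p = 6.37e-10). Chrna4 measured 7.50, 7.81 and 8.09 against 6.16, 6.43 and 7.08, a change of -1.32 (SE 0.16, limma adjusted p = 5.13e-09). For both, every P30 array lay below every E18.5 array. The Chrna4 probe used was detected on 8 of 8 E18.5 controls and 6 of 8 P30 controls. Glra2 changed by -0.99 (SE 0.35, limma adjusted p = 0.0131), just short of the fold threshold, and was called without E18.5 control replicate 6 or any 1 of P30 control replicates 3, 5, 6, 7 and 8, at -1.09 to -1.02.

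Chrna5, an accessory nicotinic subunit, was detected on 3 control and 4 mutant arrays at E18.5 and on none at P30, and its levels allow no fold. Gabrb2 changed by 0.93 (limma adjusted p = 2.85e-05) and was called without P30 control replicate 8, at 1.00. For Chrnb2 the 3 probes disagreed, at 0.35, 0.46 and -1.19. With arrays scaled to a common median in place of quantiles, the median of all genes moved from -0.01 to -0.53 and the share of higher genes among all calls fell from 47.4% to 13.9%. Under that scaling 5 subunit genes were called higher and 5 lower: Gria3 at 0.74 and Chrna9 at 0.75 were no longer called, and Gabrg1 at -1.03, Glra2 at -1.78 and Grik5 at -1.05 were. The 9 genes called with quantiles kept their direction, while Chrnb2 went from 0.35 to -0.46.

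**Figure D5:**
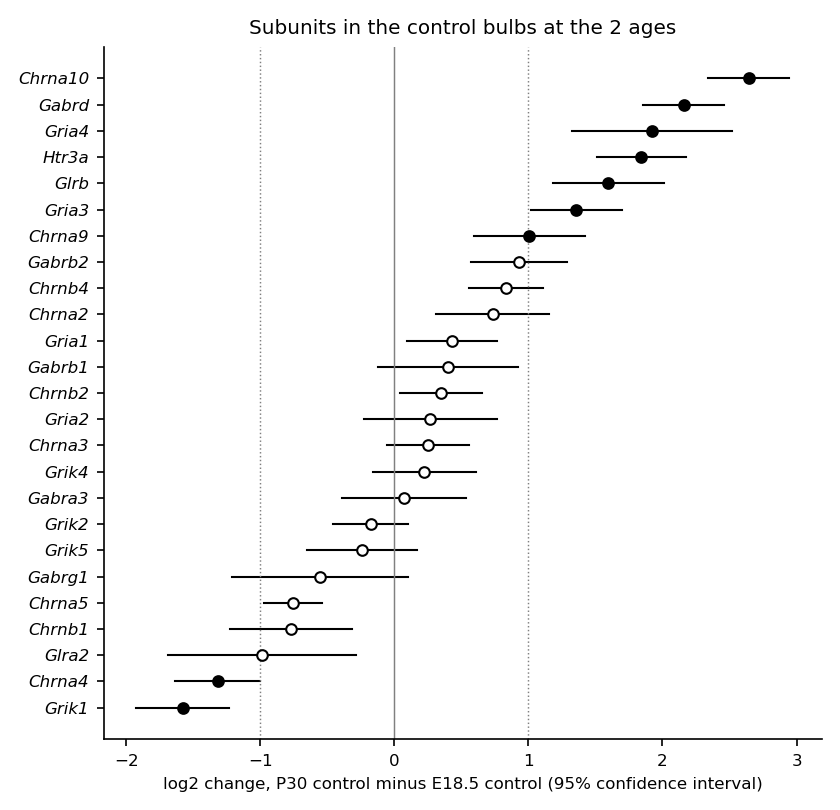
Log2 change, P30 control minus E18.5 control, of the 25 subunit genes tested, with the 95% limma confidence interval. Filled points have an adjusted p under 0.05 and lie at or past the dotted lines, which mark a 2-fold difference, from Grik1 at -1.58 to Chrna10 at a measured 2.64.

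Proteins that carry, anchor or tune these receptors were counted as lists. At E18.5 0 of 69 partner genes tested were higher and 2 lower, and at P30 0 of 65 were higher and 5 lower, against 0.581% and 4.33% of all genes called. The lower ones at E18.5 were C1ql2, a secreted C1q-like protein that recruits kainate receptors, at -2.74 (SE 0.16, limma adjusted p = 4.65e-09) and Camk2a, a calcium-dependent kinase of the excitatory synapse, at -0.80 (SE 0.16, limma adjusted p = 0.0147). At P30 Neto1, an auxiliary subunit of kainate receptors, changed by -1.08 (SE 0.18, limma adjusted p = 0.000462), and Camk2b by -1.24 (SE 0.18, limma adjusted p = 0.000125). Both kept their calls without any 1 array.

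The other 3 calls at P30 lay near the threshold. Cacng3, which traffics AMPA receptors, changed by -1.12 (limma adjusted p = 0.0434) and lost its call without any 1 of control replicates 1 to 7 and mutant replicates 1, 2, 4 and 7 (up to 0.0962). Camk2a changed by -0.78 (limma adjusted p = 0.0474) and kept its call only without control replicate 8 or mutant replicate 2 or 8 (otherwise up to 0.0916). Gphn, gephyrin, the scaffold of glycine and GABA-A receptors, changed by -0.64 (limma adjusted p = 0.0421) and kept its call only without control replicate 1 or 6 or mutant replicate 3 or 4 (otherwise up to 0.0978).

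By list, the AMPA receptor partners counted 0 of 14 called at E18.5 and 1 of 13 at P30. The kainate and delta receptor partners counted 1 of 5 at each age, the glutamate synapse scaffold 1 of 12 and 2 of 12, and the GABA-A and glycine receptor partners 0 of 17 and 1 of 16. Of the nicotinic partners and cholinergic genes 0 of 10 and 0 of 9 were called, of the metabotropic receptors of the same transmitters 0 of 8 and 0 of 9, and of other ligand-gated channels 0 of 3 and 0 of 1. The genes of smallest p in the lists with no call were Cpt1c (-0.32), Hap1 (-0.35), Ly6e (-0.45), Grm8 (-0.14) and P2rx4 (-0.14) at E18.5, and Ly6h (0.33), Grm8 (-0.70) and P2rx4 (0.23) at P30. Grm8, a glutamate receptor that acts through G proteins, was called without mutant replicate 6 or 7 (limma adjusted p = 0.0404 and 0.0481 at its lowest and highest).

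The mutant effect differed between the ages for 2 of 71 partner genes, against 1.85% of all genes. For Gphn it was lower at P30, at -0.80 (SE 0.20, limma adjusted p = 0.02). For C1ql2 it was higher, by 1.60 (SE 0.43, limma adjusted p = 0.0441), and this call was kept only without E18.5 control replicate 1 or 5, E18.5 mutant replicate 3, P30 control replicate 2, 4, 5 or 7, or P30 mutant replicate 4, 5, 7 or 8 (otherwise up to 0.0811).

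Between the ages of the controls 24 of 71 partner genes were higher at P30 and 3 lower, against 11.3% and 12.6% of all genes. Those with the largest rise among the AMPA and nicotinic partners were Cacng3 at 3.11 and Lynx1, which dampens nicotinic receptors, at 2.68. Slc12a5, the chloride exporter that makes GABA and glycine inhibitory, rose by 1.40 (SE 0.23, limma adjusted p = 3.44e-06). On the log2 scale Cacng4 fell by 1.78, Lypd6 fell by 2.01 and Mdga1 fell by 1.02. Mdga1 lost its call without any 1 of E18.5 control replicates 1, 6, 7 and 8 and P30 control replicates 2, 4 and 5.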

How the data were processed

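Total RNA of olfactory bulbs was labelled with an Ambion Illumina TotalPrep kit and hybridised to 32 Illumina arrays, per the labels' protocols. The deposited non-normalized table holds GenomeStudio bead intensities, per the submitters' processing notes, which name no version. The detection p-value of each probe was deposited beside its intensity. A second deposited table holds values normalized by the authors in an unstated way, 25.7% of them below 0, and served as an alternative.

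Intensities were background-corrected from the detection p-values, quantile-normalized and put on a log2 scale with an offset of 16 by neqc (limma 3.58.1, R 4.3.3), for each age apart and, for comparisons between ages, for all arrays together. Probes detected at p under 0.05 on at least 4 arrays were kept, and each gene was read by its probe of highest mean. Levels of different probes were not compared. Of 25697 probes, 23978 carry 1 gene name and 1719 none. limma's moderated test was adjusted over all genes and unnamed probes tested, and the procedure was tested on simulated data. Replicates were compared first: no 2 arrays were identical, and the highest correlation was 0.994.

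Same-numbered E18.5 samples deviated together (correlations 0.118 to 0.355, 8 of 8 pairs over 0.1), so those numbers were taken as pairs by the rule used. Replicates 1 to 4 and 5 to 8 lie on different chips, which could give such correlations, and the same-numbered partner was the closest one for only 2 controls and 3 mutants. At P30 the correlations ran from -0.07 to 0.42 (6 of 8 over 0.1) and the numbers were not taken as pairs. The main fits at both ages left the samples unpaired, and the replicate number entered only as a block among the alternatives.

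Genes named are those called, the 2 of smallest p in each family and comparison, all AMPA subunits, and genes detected on no array of 1 group and at least 4 of another. The subunit genes and lists were chosen with earlier results of these data known. Alternatives changed the background correction, offset, normalization, filter, probe choice, blocks, chips and single arrays.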

Additional observations from a re-analysis of the deposited data

Results flagged for a closer look

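The mutant effect differed between the ages for 3 subunit genes by the interaction test: Chrna10 (-2.55), Htr3a (1.73) and Chrna4 (0.97), each the measured P30 effect minus the E18.5 effect on the log2 scale. At E18.5 Chrna10 was detected on no array and Htr3a on 2 of 16, so their values set P30 against background and are not exact sizes.

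Single arrays lay far from the other 7 of their group for 7 of 84 combinations of gene and group, judged by the gap to the nearest array over the range of the group against Dixon's critical value for 8 samples, where chance gives about 1 in 20. In the E18.5 controls, replicate 6 was lowest for Gabra3 (6.28, ratio 0.653) and Glra2 (10.20, ratio 0.617) and highest for Grik5 (10.89, ratio 0.590). Replicate 3 was highest for Chrna3 (7.65, ratio 0.599) and replicate 7 for Chrnb2 (9.71, ratio 0.577). In the P30 controls, replicate 4 was lowest for Gria2 (9.16, ratio 0.653) and replicate 5 for Glrb (6.23, ratio 0.553).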

How the results depend on the processing

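No called subunit gene changed sign under any alternative run. Of the alternatives in which a gene was tested, the calls were the same in each for 19 of 20 genes at E18.5 and 20 of 22 at P30, 23 of 25 in the difference between the ages and 9 of 25 in the age comparison. Up to 30, 30, 44 and 28 alternatives were run, and the stricter detection filter tested only 14, 17, 19 and 19 subunit genes. On 1 chip alone, E18.5 gave 0 lower subunit genes on either chip (31 and 4 genes in all), and P30 gave 1 higher subunit gene on each (137 and 186 genes in all). With chip as a block, or without mutant replicate 8, 2 subunit genes were lower at P30, and leaving out 1 array gave 1 to 2. The difference between the ages gave 1 higher subunit gene (Htr3a, with Chrna4 lost) and 84 genes in all with median scaling, 364 genes with chip as a block and 136 without E18.5 control replicates 6 and 8. The age comparison gave 2 higher and 1 lower subunit genes (1503 genes) with no background correction, 5 lower with median scaling, 10 higher and 4 lower (3415 genes) with the deposited normalized values, and 12 higher and 5 lower (6992 genes) with no fold threshold. The last has its cause in the threshold and the single chips have fewer arrays; for the others the cause was not tested. Leaving out 1 array gave 50 to 73 genes at E18.5, 339 to 473 at P30, 165 to 276 for the difference and 2628 to 2809 for age.

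With the replicate block, the pairing of E18.5 samples left Gabrd called (adjusted p = 0.0270, limma) among 62 genes. The block gave 539 genes at P30 and 380 in the difference, where Chrnb2 was called (adjusted p = 0.0313, limma).

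Subunits detected on no array of a group allow bounds only, and 23 of 50 were detected on no array.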
